A study of Mus musculus with 9 samples.

Results

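Ckm, Ckb, Ckmt2, Ak1, Ampd1, Ampd2, Ampd3, Slc6a8, Gamt and Mb are the genes of the creatine phosphate and adenylate energy buffers and of oxygen storage described here, 10 of the 35675 genes counted. They were taken as a list of named genes, each measured as estimated counts summed over its transcripts, and all 10 passed the filter on low counts that left 15714 genes for testing. The samples were 9 RNA libraries made from Dmdmdx embryonic fibroblasts of the mouse (MEFs). Dmdmdx is the allele of the mdx mouse, in which a stop codon in Dmd removes full-length dystrophin, and it is used to model Duchenne muscular dystrophy. They formed 3 groups of 3. The MyoD F/R/C group received ectopic MyoD (the muscle transcription factor encoded by Myod1) and small molecules, named in the labels only by the abbreviation F/R/C. The MyoD group received ectopic MyoD alone, and the MEF group received no treatment. Times, doses, the vector and the age of the embryos are not given in the labels, and all groups carry the Dmdmdx allele.

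Creatine kinases move a phosphate group between ATP and creatine, so that creatine phosphate holds a reserve that refills ATP during contraction. Adenylate kinase turns pairs of ADP molecules into ATP and AMP, and AMP deaminase removes the AMP as IMP, which the purine nucleotide cycle can return to AMP. Myoglobin binds oxygen inside muscle cells. In skeletal muscle the cytosolic creatine kinase is mainly the muscle form (Ckm), while Ckb is the brain form, which many other tissues use. Each of these families has members that are typical of muscle beside members that most cells express.

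The libraries held 21112071 to 24291056 estimated counts, and 3 counts, the most that a count of 0 was taken to allow, equalled 0.113 to 0.144 CPM (counts scaled to a common effective library size by TMM). That limit covers counting error only. No label states that the 3 libraries of a group were separate cultures or embryos, so p-values measure the spread between these libraries, which may be technical. The 10 skeletal muscle markers examined summed to 20716 to 31865 CPM in MyoD F/R/C libraries, 807 to 2358 CPM in MyoD libraries, and 4.15 to 352 CPM in MEF libraries, where replicate 3 held the 352. Fibroblast markers summed to 5203 to 7972, 8596 to 34258 and 19833 to 80773 CPM, in that order of groups. Col1a1, Col1a2 and Col3a1 gave most of each sum, and the other fibroblast markers did not all follow it. Dcn averaged 241, 53.1 and 218 CPM, Thy1 540, 424 and 583 CPM, and Twist2 34.3, 28.3 and 19.6 CPM. Pdgfra, Lum, Fbln2 and Mfap5 had their lowest mean in MyoD F/R/C libraries. Smooth muscle markers, which include Des, summed to 3841 to 7125, 322 to 1826 and 704 to 1934 CPM, of which Des gave 3457 to 5755 CPM in MyoD F/R/C libraries. Heart markers reached only 9.19 to 13.4, 0.673 to 5.14 and 1.75 to 3.74 CPM, and 3 of the 8 were at 0 counts in all MyoD and all MEF libraries. Neural and glial markers summed to 26.7 to 43.6, 31.8 to 157 and 27.8 to 110 CPM, and endothelial ones to 8.21 to 13.5, 1.57 to 2.89 and 2.42 to 3.02 CPM. Of the endothelial markers, Vwf alone gave 7.81, 10.4 and 6.87 CPM in MyoD F/R/C libraries, and each of the others averaged at most 0.729 CPM there. Tek averaged 0.060 CPM in MyoD F/R/C libraries and 1.70 CPM in MEF libraries. Macrophage markers stayed at or below 14.0 CPM and erythroid markers at or below 0.528 CPM. In these bulk libraries, more cells of a type and more RNA per cell cannot be told apart. Myod1 itself had 6412, 6163 and 6874 counts in MyoD F/R/C libraries. It had 161, 239 and 394 counts in MyoD libraries, and 56, 10 and 130 counts in MEF libraries. The MyoD and MyoD F/R/C groups thus did not have similar Myod1 levels, and the part of this in the comparisons below was not tested. The vector is not given, so whether these counts include the ectopic transcript is not known.

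The start regions of 5 of the genes are shown because the groups differed in which gene of a family, or which transcript of Ak1, was in use. RefSeq promoter windows (GRCm38.p6, 250 bases before to 50 after the start) were found for 8 of the 10 genes, 16 windows in all; Ampd1 and Slc6a8 are named only. Capitals mark CAGCTG, an E-box of the kind MyoD-family proteins can bind, and TATAAA, a core promoter element, each searched on both strands. CAGCTG occurred in 6 of the 16 windows and in 16.3% of 32851 windows of all genes, and TATAAA in 2 of the 16 and in 13.6% of all windows. The motifs do not overlap each other, several windows of 1 gene overlap, and a match describes these letters only. The windows are those of Ckm (chr7:19410844-19411143, plus strand), Ckmt2 (chr13:91876836-91877135, minus strand), Mb at the start of transcript Mb-203 (chr15:77022738-77023037, minus strand), Ak1 at the start of Ak1-202 (chr2:32625187-32625486, plus strand), Ak1 at the start of Ak1-201 (chr2:32629250-32629549, plus strand) and Ckb (chr12:111672289-111672588, minus strand).
Ckm: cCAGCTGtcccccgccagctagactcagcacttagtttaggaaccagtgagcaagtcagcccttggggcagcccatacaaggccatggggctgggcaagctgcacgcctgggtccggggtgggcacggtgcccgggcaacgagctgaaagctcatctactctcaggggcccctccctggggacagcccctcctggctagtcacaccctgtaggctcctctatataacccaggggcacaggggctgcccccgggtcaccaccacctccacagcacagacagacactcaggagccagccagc
Ckmt2: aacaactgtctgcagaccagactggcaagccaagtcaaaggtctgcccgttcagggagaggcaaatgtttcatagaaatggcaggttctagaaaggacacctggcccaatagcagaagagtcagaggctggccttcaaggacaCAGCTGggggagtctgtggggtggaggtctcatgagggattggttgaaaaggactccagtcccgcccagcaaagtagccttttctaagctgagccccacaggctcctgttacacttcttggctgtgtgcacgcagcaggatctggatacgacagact
Mb-203 start: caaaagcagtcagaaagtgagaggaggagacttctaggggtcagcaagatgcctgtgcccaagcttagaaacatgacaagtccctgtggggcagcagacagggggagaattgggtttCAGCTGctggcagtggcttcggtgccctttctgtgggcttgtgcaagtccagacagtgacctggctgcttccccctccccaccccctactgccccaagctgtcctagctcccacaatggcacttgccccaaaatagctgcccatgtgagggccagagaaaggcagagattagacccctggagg
Ak1-202 start: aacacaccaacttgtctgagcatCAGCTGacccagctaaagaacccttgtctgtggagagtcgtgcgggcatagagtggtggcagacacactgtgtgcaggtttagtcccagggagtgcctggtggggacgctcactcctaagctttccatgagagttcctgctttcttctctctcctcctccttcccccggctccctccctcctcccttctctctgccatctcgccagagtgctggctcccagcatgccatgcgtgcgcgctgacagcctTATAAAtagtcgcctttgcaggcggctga
Ak1-201 start: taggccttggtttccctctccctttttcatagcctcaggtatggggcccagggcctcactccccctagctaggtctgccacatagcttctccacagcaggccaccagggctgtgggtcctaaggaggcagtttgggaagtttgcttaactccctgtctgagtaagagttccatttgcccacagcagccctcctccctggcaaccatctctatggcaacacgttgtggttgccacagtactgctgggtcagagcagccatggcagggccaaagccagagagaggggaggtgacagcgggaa
Ckb: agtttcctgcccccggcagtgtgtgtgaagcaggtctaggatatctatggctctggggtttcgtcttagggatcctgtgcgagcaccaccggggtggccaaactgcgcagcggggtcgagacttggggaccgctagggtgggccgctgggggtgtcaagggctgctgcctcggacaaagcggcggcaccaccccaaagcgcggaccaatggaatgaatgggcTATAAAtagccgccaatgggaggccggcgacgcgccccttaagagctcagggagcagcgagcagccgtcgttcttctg
The Ckm, Ckmt2 and Mb windows each held 1 CAGCTG, with its first base at -249, -107 and -133 from the start, and no TATAAA. The Ckb window held no CAGCTG and 1 TATAAA at -28. Only exact matches were counted, so the run tatataa in the Ckm window was not marked. The windows printed are not a random choice, since 4 of the 6 windows with CAGCTG are among them. Of the other Mb windows, that of Mb-201 overlaps the Mb-203 window and held the same CAGCTG site. That of Mb-202, a transcript that also rose against MEF, held no CAGCTG. Mb-206, which held 55.6% of Mb TPM on average in MyoD F/R/C libraries and rose against MEF, had no window at its start. Nor did Ckm-202, which begins at 19404776 and held 39.5% to 45.8% of Ckm TPM in MyoD F/R/C libraries. The Gamt window and all 3 Ampd3 windows held neither motif, although both genes rose against MEF. Of the Ak1 windows printed, that of Ak1-202 held CAGCTG at -227 and TATAAA 21 bases after the start, and that of Ak1-201 held neither. The Ak1-203 window, not printed, held CAGCTG at -177, although Ak1-203 was not called in any comparison.

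In MyoD F/R/C libraries, 6 of the 10 genes were higher than in MEF libraries (Ckm, Ckmt2, Ampd1, Ampd3, Mb and Gamt), 2 were lower (Ampd2 and Slc6a8), and Ckb and Ak1 did not pass the test. Among all 15714 genes, 37.6% were called, 19.5% higher and 18.1% lower, and 53.2% had no overlap between the libraries. The median log2 fold change was 1.94 over the 10 genes and -0.043 over all genes. Against MyoD libraries, 4 were higher (Ckm, Ckmt2, Ampd1 and Gamt), 2 were lower (Ampd2 and Slc6a8) and 4 did not pass, beside 33.9% called among all genes, 17.8% higher and 16.1% lower, and 49.8% without overlap. The median was 1.33 over the 10 genes and -0.017 over all genes. Each group enters 2 of the 3 comparisons, so these share libraries.

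Between MyoD and MEF libraries none of the 10 genes, and none of all genes (0%), passed the edgeR quasi-likelihood test after Benjamini-Hochberg adjustment. At an unadjusted p under 0.05 there were 4 of the 10 and 732 of all genes (4.66%), and DESeq2 called 4 of the 10 (Ckm, Ckmt2, Ampd1 and Mb) and 171 of all. Ckm, Ckmt2, Ampd1, Mb and Ak1 had every MyoD library above every MEF library, beside 7.52% of all genes without overlap in either direction and 4.4% above. Without MEF replicate 3, the edgeR test called 3 of the 10 (Ckm, Ampd1 and Mb) and 161 of all genes. With the replicate number as a block it called Mb alone of the 10 and 13 of all genes.

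**Figure D1:**
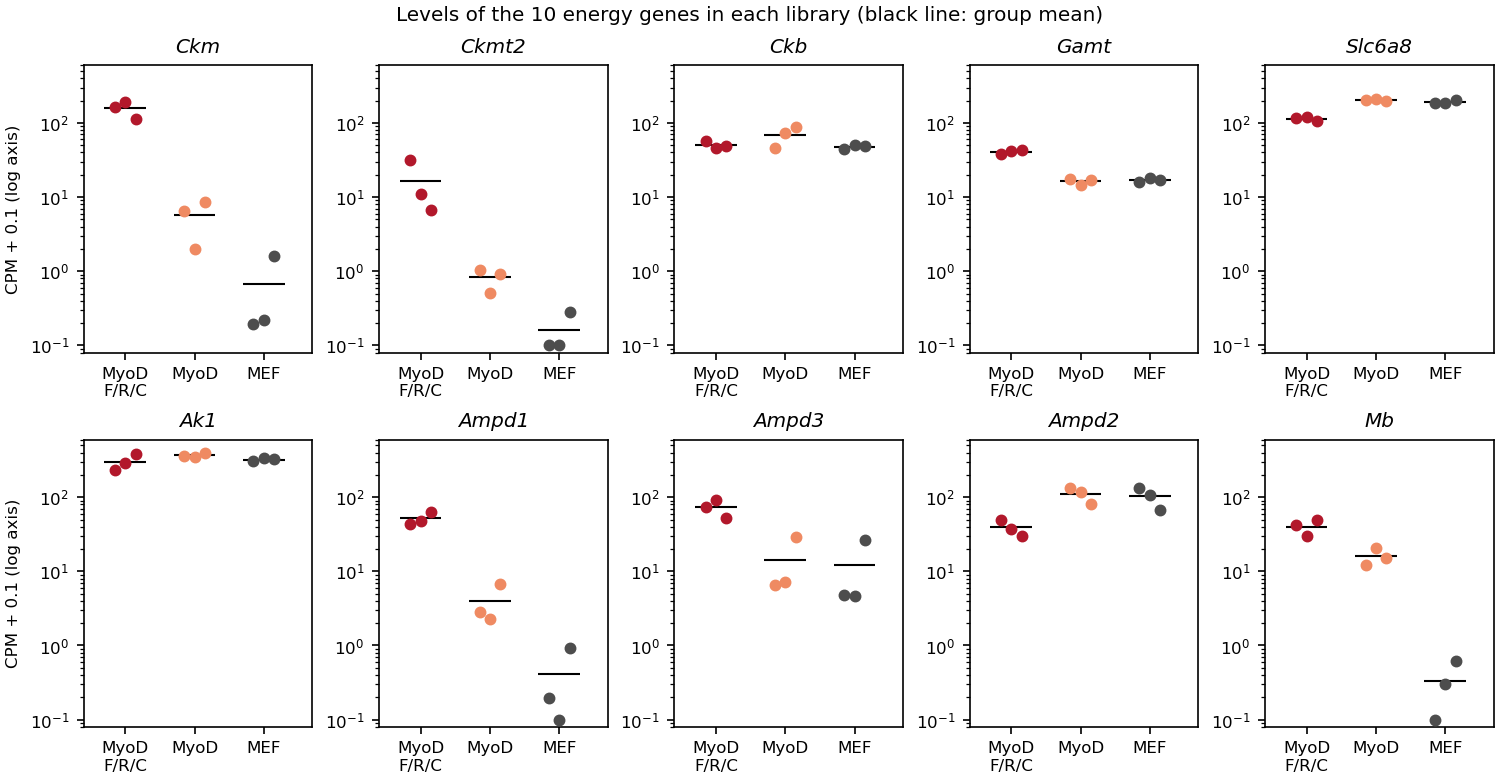
Level of each of the 10 genes in every library, as CPM + 0.1 on a log axis, with points for libraries and a black line at the mean of each group (n = 3). Ckm, Ckmt2, Ampd1 and Mb span several orders between MyoD F/R/C and MEF libraries, whereas Ckb and Ak1 lie within narrow ranges in which MyoD F/R/C libraries overlap both other groups. For Ak1, every MyoD library lies above every MEF library.

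Ckm (ENSMUSG00000030399, chromosome 7, 19404776 to 19422841, GRCm38) encodes the muscle creatine kinase that refills ATP in the cytosol and at the sarcomere. It had 3958, 4204 and 2353 counts in MyoD F/R/C libraries, 142, 50 and 178 counts in MyoD libraries, and 2, 3 and 33 counts in MEF libraries. The 3 groups did not overlap, and 1 library, MEF replicate 3, held most of the counts of the MEF group. The means were 157 ± 40.1 CPM, 5.60 ± 3.40 CPM and 0.579 ± 0.817 CPM (SD, n = 3 each). Ckm rose in MyoD F/R/C libraries against MEF (log2 fold change 8.09 ± 1.07 SE, edgeR adjusted p = 0.00104) and against MyoD libraries (4.81 ± 0.90, edgeR adjusted p = 0.00532). MyoD libraries lay 3.28 ± 0.92 above MEF libraries on the log2 scale, which did not pass (edgeR adjusted p = 0.559). Without MEF replicate 3, which also had the highest muscle marker sum of its group, this last difference was 5.65 (edgeR adjusted p = 0.0170) and that of MyoD F/R/C against MEF was 10.39.

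Ckmt2 (ENSMUSG00000021622, chromosome 13, 91853387 to 91876885) encodes the sarcomeric mitochondrial creatine kinase, which makes creatine phosphate where ATP leaves the mitochondria. It had 748, 241 and 137 counts in MyoD F/R/C libraries, 21, 11 and 17 counts in MyoD libraries, and 0, 0 and 4 counts in MEF libraries. The groups did not overlap, and the MyoD F/R/C libraries differed among themselves more, relative to their mean, than for the other 9 genes, at 31.4, 11.0 and 6.58 CPM. It rose in MyoD F/R/C libraries against MEF (log2 fold change 7.97 ± 1.15, edgeR adjusted p = 0.00142), a value that rests on 4 counts in 1 MEF library, and against MyoD (4.49 ± 0.91, edgeR adjusted p = 0.00730). MyoD libraries lay 3.48 ± 1.10 above MEF libraries (edgeR adjusted p = 0.663). Leaving out 1 library moved the fold change of MyoD F/R/C against MEF between 7.07 (without MyoD F/R/C replicate 1) and 11.50 (without MEF replicate 3), and that of MyoD against MEF up to 7.08 (without MEF replicate 3, edgeR adjusted p = 0.146). Without MEF replicate 3 the MEF group is at 0 counts, so those values depend on the prior count of the fit. Against MyoD the value was 3.60 without MyoD F/R/C replicate 1.

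Ckb (ENSMUSG00000001270, chromosome 12, 111669361 to 111672338), the cytosolic creatine kinase of brain and of many other tissues, had 1338, 991 and 1026 counts in MyoD F/R/C libraries, 1017, 1921 and 1849 in MyoD libraries, and 962, 1246 and 1048 in MEF libraries. The ranges overlapped in every comparison, with MyoD replicates 2 and 3 highest. The means were 50.2 ± 5.55, 69.0 ± 21.9 and 47.8 ± 2.75 CPM (SD, n = 3 each). Neither MyoD F/R/C against MEF (log2 fold change 0.072 ± 0.24, edgeR adjusted p = 0.833), nor MyoD F/R/C against MyoD (-0.46 ± 0.24, 0.166), nor MyoD against MEF (0.53 ± 0.24, 1) passed. The sign of the first was negative with scaling by total counts and without MEF replicate 1 or MyoD F/R/C replicate 1. Without MyoD replicate 1 the second passed, at -0.69 (edgeR adjusted p = 0.0360). Ckb shares 504 of its 3030 31-base words with the pseudogene Gm12892, so its counts could include reads of near-identical copies.

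Ckm was set against Ckb within each library. The log2 ratio of Ckm to Ckb (CPM + 0.5) was 1.56, 2.07 and 1.19 in MyoD F/R/C libraries, -2.75, -4.93 and -3.30 in MyoD libraries, and -6.25, -6.35 and -4.59 in MEF libraries. The ratio was positive in every MyoD F/R/C library and negative in the other 6, and the ratios of MyoD and MEF libraries overlapped. Per length, as TPM, Ckm stood at 4.80, 6.63 and 3.58 times the level of Ckb in MyoD F/R/C libraries, 0.218, 0.0383 and 0.143 times in MyoD libraries, and 0.00100, 0.00117 and 0.0464 times in MEF libraries. The mean was 7.34 higher in MyoD F/R/C than in MEF and 5.27 higher than in MyoD libraries, each with an exact two-sided permutation p of 0.1, the smallest that 3 against 3 allows. MyoD libraries lay 2.07 above MEF libraries (exact permutation p = 0.2), and the ratio was higher in MyoD in each of the 3 pairs of equal replicate number. With those pairs as a block, each comparison had an exact sign-flip p of 0.25, the smallest that 3 pairs allow. The added 0.5 CPM exceeds the Ckm level of MEF replicates 1 and 2, 0.0930 and 0.121 CPM, and so bears on the size of the ratio there. With 0.1 or 1 CPM added, the difference was 8.48 or 6.66 for MyoD F/R/C against MEF and 3.07 or 1.54 for MyoD against MEF, and as TPM it was 8.29 and 2.86. Over the 3 groups together, without pairing, F was 52.3 and the exact permutation p was 0.00714 over 1680 arrangements. Ckm and Ckb transcripts share 0 of their 31-base words, so reads of that length separate them. Ckm values here sum all its transcripts. Ckm-202, annotated as a processed transcript and not as protein-coding, held 39.5% to 45.8% of Ckm TPM in MyoD F/R/C libraries.

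Summed per transcript length as TPM, the 4 creatine kinase genes (the 3 above and Ckmt1, the mitochondrial form of other tissues) gave 451, 446 and 219 TPM in MyoD F/R/C libraries, 93.2, 136 and 143 TPM in MyoD libraries, and 65.0, 83.1 and 73.4 TPM in MEF libraries. Every MyoD F/R/C library was above the others, and replicate 3 was the lowest of them. Ckm took 75.7%, 84.4% and 75.7% of that sum in MyoD F/R/C libraries, 16.2%, 3.16% and 12.2% in MyoD libraries, and 0.0998%, 0.105% and 4.38% in MEF libraries. Ckb took 15.8%, 12.7% and 21.1% in MyoD F/R/C libraries, 74.1%, 82.5% and 84.9% in MyoD libraries, and 99.4%, 89.3% and 94.5% in MEF libraries. The leading gene of the family was therefore Ckm in each MyoD F/R/C library and Ckb in each of the other 6. Of the Ckm TPM in MyoD F/R/C libraries, 45.5%, 45.8% and 39.5% was Ckm-202, annotated as a processed transcript and not as protein-coding. Ckm-201, annotated as protein-coding, had 181, 198 and 98.1 TPM there, and Ckb-201, the main Ckb transcript, had 69.3, 54.5 and 45.7 TPM. These values treat the assignment of reads to transcripts as exact.

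**Figure D2:**
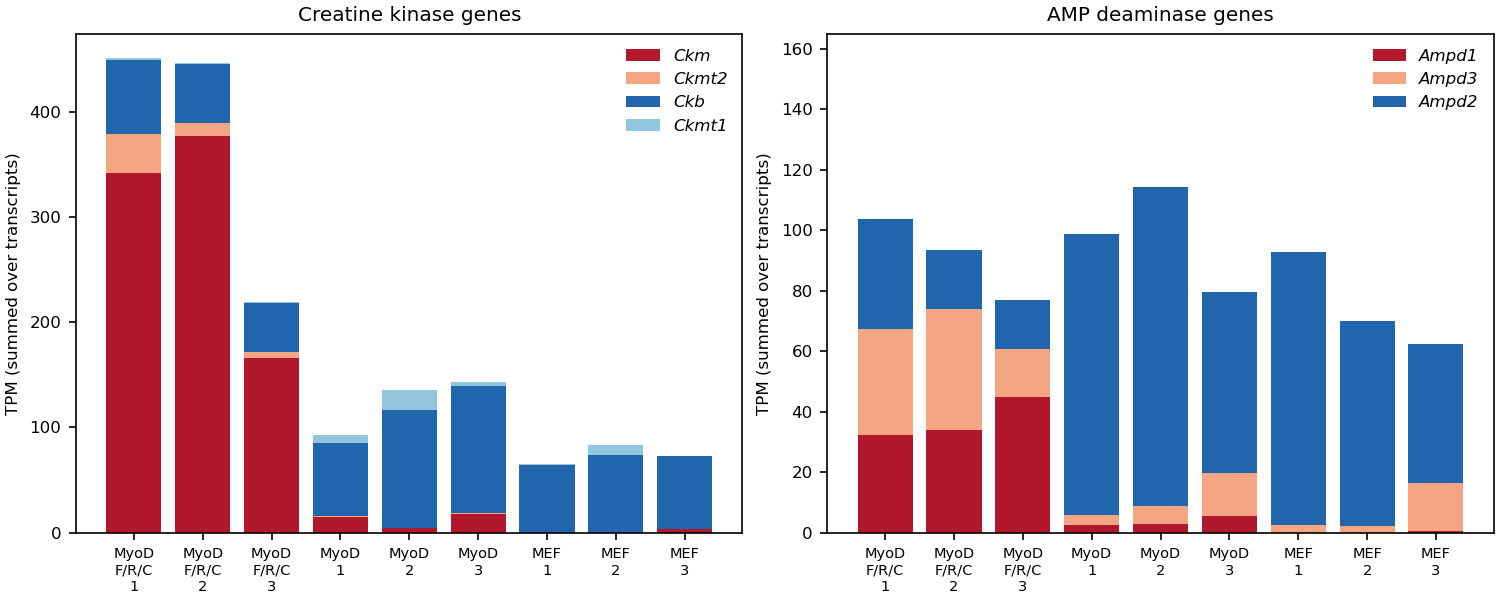
Summed TPM of the creatine kinase genes (left) and of the AMP deaminase genes (right) in each of the 9 libraries, stacked by gene. Ckm makes up 75.7% to 84.4% of the creatine kinase sum in MyoD F/R/C libraries and at most 16.2% elsewhere, and the AMP deaminase sum stays between 62.3 and 114 TPM while the Ampd2 share is lower and the Ampd1 share higher in every MyoD F/R/C library than elsewhere.

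The creatine supply genes moved in opposite directions. Gamt (ENSMUSG00000020150, chromosome 10, 80258151 to 80261012) encodes the methyltransferase of the last step of creatine synthesis, and had 907, 923 and 886 counts in MyoD F/R/C libraries, 386, 381 and 352 in MyoD libraries, and 340, 442 and 370 in MEF libraries. MyoD F/R/C libraries were all above the others, and the spread within groups was narrow, at 40.9 ± 2.46, 16.2 ± 1.58 and 16.9 ± 1.00 CPM (SD, n = 3 each). Gamt rose against MEF (log2 fold change 1.28 ± 0.16, edgeR adjusted p = 0.000889) and against MyoD (1.34 ± 0.16, edgeR adjusted p = 0.00118).

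Slc6a8 (ENSMUSG00000019558, chromosome X, 73673150 to 73682502) encodes the transporter that brings creatine into the cell, and had 2755, 2664 and 2193 counts in MyoD F/R/C libraries, 4599, 5632 and 4092 in MyoD libraries, and 3965, 4653 and 4356 in MEF libraries. All MyoD F/R/C libraries were below all others, with means of 114 ± 8.17, 205 ± 7.95 and 191 ± 8.84 CPM (SD, n = 3 each). It fell in MyoD F/R/C libraries against MEF (-0.74 ± 0.15, edgeR adjusted p = 0.00528) and against MyoD (-0.85 ± 0.15, edgeR adjusted p = 0.00402). Its transcripts Slc6a8-201 and Slc6a8-203 fell in both comparisons, while Slc6a8-202, at 18.5, 22.6 and 19.6 TPM against 31.3, 27.7 and 33.9 TPM in MEF libraries, was not called (log2 fold change -0.15, edgeR adjusted p = 0.750).

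Gatm, the enzyme of the other step of creatine synthesis, was examined among related genes and also rose. It averaged 401 CPM in MyoD F/R/C libraries, 19.9 CPM in MyoD libraries and 3.55 CPM in MEF libraries. The log2 fold change was 6.82 ± 1.10 against MEF (edgeR adjusted p = 0.00227) and 4.34 ± 0.97 against MyoD (edgeR adjusted p = 0.0106). MEF replicate 3, at 8.72 CPM, stood above MEF replicates 1 and 2, at 1.49 and 0.443 CPM; the first value was 8.65 without it and 6.23 without MEF replicate 2, and the second was 5.05 without MyoD replicate 3. Ckmt1 did not pass, with 1.05, 0.228 and 0.336 CPM in MyoD F/R/C libraries, 3.09, 10.6 and 1.15 CPM in MyoD libraries, and 0.233, 5.92 and 0.461 CPM in MEF libraries.

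Ampd1 (ENSMUSG00000070385, chromosome 3, 103074014 to 103099720) encodes the AMP deaminase of skeletal muscle. It had 1028, 1045 and 1332 counts in MyoD F/R/C libraries, 61, 58 and 139 counts in MyoD libraries, and 2, 0 and 18 counts in MEF libraries. The groups did not overlap, and MEF replicate 3 again held most counts of its group. The means were 51.6 ± 11.0, 3.87 ± 2.45 and 0.308 ± 0.455 CPM (SD, n = 3 each). Ampd1 rose in MyoD F/R/C libraries against MEF (log2 fold change 7.39 ± 1.06, edgeR adjusted p = 0.00142) and against MyoD (3.74 ± 0.86, edgeR adjusted p = 0.0118). MyoD libraries lay 3.65 ± 0.95 above MEF (edgeR adjusted p = 0.481), and without MEF replicate 3 this was 6.32 (edgeR adjusted p = 0.0156). MyoD F/R/C against MEF ranged from 6.72 (without MEF replicate 2) to 9.99 (without MEF replicate 3), and MyoD F/R/C against MyoD reached 4.38 without MyoD replicate 3.

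Ampd2 (ENSMUSG00000027889, chromosome 3, 108074062 to 108086651), the AMP deaminase form of liver and many other tissues, went the other way. It had 1188, 815 and 629 counts in MyoD F/R/C libraries, 2975, 3074 and 1684 in MyoD libraries, and 2869, 2683 and 1443 in MEF libraries. MyoD F/R/C libraries were all below the others, and replicate 3 was the lowest of each group. Ampd2 fell against MEF (-1.39 ± 0.31, edgeR adjusted p = 0.00895) and against MyoD (-1.49 ± 0.31, edgeR adjusted p = 0.00825). Its transcript Ampd2-201 fell in both comparisons, with 8.43 ± 1.68 TPM in MyoD F/R/C, 49.8 ± 17.1 TPM in MyoD and 44.5 ± 13.3 TPM in MEF libraries (SD, n = 3 each).

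Ampd3 (ENSMUSG00000005686, chromosome 7, 110768206 to 110812405), the form of red blood cells, had 1767, 1983 and 1104 counts in MyoD F/R/C libraries, 143, 188 and 606 in MyoD libraries, and 102, 112 and 580 in MEF libraries. All MyoD F/R/C libraries were above the others, and replicate 3 of MyoD and of MEF stood well above its group. Those same 2 libraries had the highest skeletal muscle marker sums of their groups, 2358 and 352 CPM. They also had the highest smooth muscle sums, 1826 and 1934 CPM, and the part of either in this was not tested. The 7 erythroid markers summed to 0.0839 to 0.528 CPM in MyoD F/R/C, 0 to 0.192 CPM in MyoD and 0 to 0.161 CPM in MEF libraries. Of these markers, 4, 4 and 5 were at 0 counts in all libraries of the group, and their part was not tested. Ampd3 rose against MEF (log2 fold change 2.60 ± 0.84, edgeR adjusted p = 0.0382), a call that ended without MEF replicate 1 or 2, or without any MyoD F/R/C replicate, at edgeR adjusted p from 0.0678 to 0.110. With MEF replicate 3 left out, the value was 3.92. Against MyoD it did not pass (2.35 ± 0.83, edgeR adjusted p = 0.0563), but did with the replicate number as a block (2.96, edgeR adjusted p = 0.0116) and without MEF replicate 3 or MyoD replicate 3 (3.42 without the second). Rnf141 on the opposite strand overlaps Ampd3 and shares 170 of its 31-base words, and the use of strand in counting is not given.

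As shares of the TPM of the 3 AMP deaminase genes, Ampd2 took 35.0%, 20.9% and 21.0% in MyoD F/R/C libraries, 94.1%, 92.3% and 75.3% in MyoD libraries, and 97.2%, 96.7% and 73.8% in MEF libraries. Ampd1 took 31.1%, 36.2% and 58.3% in MyoD F/R/C libraries and at most 7.01% in the others. Ampd3 took 33.9%, 42.9% and 20.7% in MyoD F/R/C libraries, 3.25%, 5.21% and 17.7% in MyoD libraries, and 2.71%, 3.25% and 25.1% in MEF libraries, so that its share overlapped between MyoD F/R/C and MEF libraries. Unlike that of the creatine kinases, the sum of the family overlapped between groups, at 91.5 ± 13.6 TPM in MyoD F/R/C, 97.6 ± 17.5 TPM in MyoD and 75.0 ± 15.9 TPM in MEF libraries (SD, n = 3 each).

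**Figure D3:**
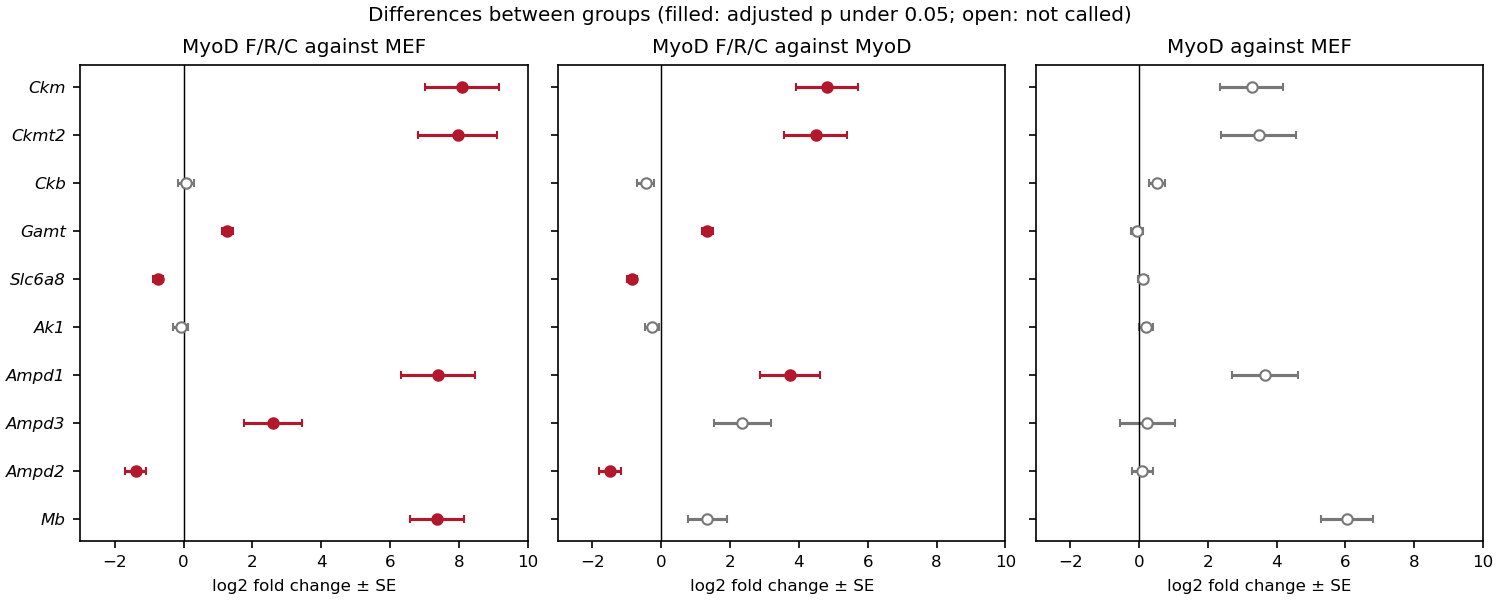
Log2 fold change ± SE of each gene in the 3 comparisons, filled where the edgeR adjusted p was under 0.05 and open where it was not. Of the 10 genes, 8 were called in MyoD F/R/C against MEF, 6 in MyoD F/R/C against MyoD and 0 in MyoD against MEF.

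Ak1 (ENSMUSG00000026817, chromosome 2, 32621758 to 32635058), the cytosolic adenylate kinase, had 5624, 6409 and 7883 counts in MyoD F/R/C libraries, 7963, 9340 and 8117 in MyoD libraries, and 6545, 8304 and 7036 in MEF libraries. Its level was 302 ± 71.8, 367 ± 20.8 and 321 ± 15.2 CPM (SD, n = 3 each), with MyoD F/R/C libraries overlapping both other groups. No comparison passed, with log2 fold changes of -0.087 ± 0.21 against MEF (edgeR adjusted p = 0.763) and -0.28 ± 0.21 against MyoD (0.322). The first was 0.063 without MyoD F/R/C replicate 1. Summed over transcripts as TPM, which corrects for transcript length, the gene stood at 212, 251 and 239 TPM in MyoD F/R/C libraries, 420, 428 and 412 TPM in MyoD libraries, and 314, 376 and 358 TPM in MEF libraries. On that scale the MyoD F/R/C libraries were all below the others, and counts scaled from TPM gave log2 fold changes of -0.26 against MEF (edgeR adjusted p = 0.320) and -0.53 against MyoD (edgeR adjusted p = 0.0673), neither of which passed.

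Although the Ak1 gene total was not called in counts, its transcripts differed in both directions. Ak1-202, which begins at 32625437 (window above), had 116, 115 and 119 TPM in MyoD F/R/C libraries, 38.6, 48.4 and 38.3 TPM in MyoD libraries, and 58.2, 12.9 and 50.5 TPM in MEF libraries. It was 50.2% ± 4.51 of the gene's TPM in MyoD F/R/C, 9.93% ± 1.18 in MyoD and 12.0% ± 7.77 in MEF libraries (SD, n = 3 each). Ak1-201, which begins at 32629504, had 64.2, 90.7 and 82.2 TPM in MyoD F/R/C libraries, 275, 268 and 262 TPM in MyoD libraries, and 184, 267 and 221 TPM in MEF libraries. The MyoD F/R/C libraries did not overlap the others for either transcript.

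Ak1-202 rose against MEF (log2 fold change of counts 1.96 ± 0.50, edgeR adjusted p = 0.0388 over 44847 transcripts), and against MyoD it did not pass (1.93 ± 0.50, edgeR adjusted p = 0.0508). Ak1-201 fell against MEF (-1.05 ± 0.26, edgeR adjusted p = 0.0365) and against MyoD (-1.33 ± 0.26, edgeR adjusted p = 0.0227). Ak1-204 also fell in both, and Ak1-203 was not called. These tests treat the assignment of reads to transcripts as exact. Among all transcripts 11.6% were called in MyoD F/R/C against MEF, 7.89% against MyoD and 0.0111% in MyoD against MEF. Of the 42 transcripts of the 10 genes that were tested, 16, 11 and 0 were called.

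**Figure D4:**
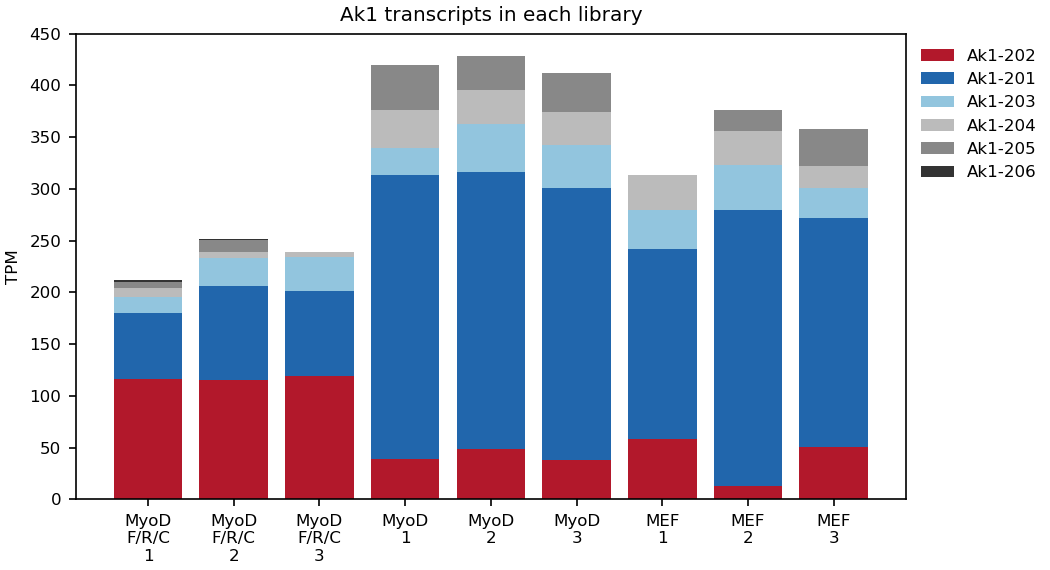
TPM of the 6 Ak1 transcripts, stacked, in each of the 9 libraries. Ak1-202 lies at 115 to 119 TPM in MyoD F/R/C libraries and at 12.9 to 58.2 TPM elsewhere, while Ak1-201 lies at 64.2 to 90.7 TPM in MyoD F/R/C libraries and at 184 to 275 TPM elsewhere.

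Mb (ENSMUSG00000018893, chromosome 15, 77015487 to 77050670) encodes myoglobin, which stores oxygen in muscle and heart. It had 989, 648 and 1016 counts in MyoD F/R/C libraries, 271, 536 and 315 in MyoD libraries, and 0, 5 and 11 counts in MEF libraries. The groups did not overlap, and MyoD libraries were nearer to MyoD F/R/C than to MEF libraries on the log scale. The means were 39.9 ± 9.72, 15.8 ± 4.10 and 0.236 ± 0.256 CPM (SD, n = 3 each). Mb rose in MyoD F/R/C libraries against MEF (log2 fold change 7.37 ± 0.78, edgeR adjusted p = 0.000471), by 6.76 without MEF replicate 1 and 8.43 without MEF replicate 3. Against MyoD it did not pass (1.33 ± 0.57, edgeR adjusted p = 0.101), but DESeq2 called it (adjusted p = 0.0106), as did edgeR without MEF replicate 1 (adjusted p = 0.0244).

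MyoD libraries lay 6.04 ± 0.75 above MEF libraries in Mb, which did not pass (edgeR adjusted p = 0.0970). With the replicate number as a block it passed (6.13, edgeR adjusted p = 0.0498), as it did without MEF replicate 3 (7.17, edgeR adjusted p = 0.00422). Apol6 overlaps Mb on the opposite strand and shares 36 of its 1510 31-base words. The heart markers, which name another tissue that uses Mb and Ckmt2, summed to at most 13.4 CPM in any library. Cygb, the cytoglobin gene of fibroblasts and other cells, was at 5.41, 6.38 and 8.79 CPM in MyoD F/R/C libraries, 5.33, 7.40 and 1.44 CPM in MyoD libraries, and 7.67, 5.11 and 1.94 CPM in MEF libraries, and was not called.

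Of 49 related energy genes listed by role, 42 were tested. In MyoD F/R/C against MEF libraries 13 were higher and 6 lower, beside 19.5% and 18.1% of all genes, and in MyoD F/R/C against MyoD libraries also 13 and 6, beside 17.8% and 16.1%. The median log2 fold change was 0.46 and 0.44, against -0.043 and -0.017 over all genes. In MyoD against MEF none was called by edgeR and 3 had an unadjusted p under 0.05 (Gatm, Prkag3 and Ak7). Values below are for MyoD F/R/C against MEF unless stated.

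In the purine nucleotide cycle and IMP synthesis, 4 of 10 genes rose and 1 fell, and the adenylosuccinate synthase genes split. Adssl1, the muscle form, averaged 193 CPM in MyoD F/R/C libraries, 17.3 CPM in MyoD libraries and 8.28 CPM in MEF libraries (log2 fold change 4.54 ± 0.59, edgeR adjusted p = 0.000947; 5.18 without MEF replicate 3). Adss, the form of other tissues, averaged 31.2 CPM in MyoD F/R/C libraries, 89.9 CPM in MyoD libraries and 74.1 CPM in MEF libraries (-1.25 ± 0.16, edgeR adjusted p = 0.000980). Adsl, the lyase that completes the cycle, rose by 1.10 ± 0.18, and Impdh1, which takes IMP toward guanine nucleotides, and Ppat, the opening enzyme of purine synthesis, rose as well.

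Of the 5 other adenylate kinases examined, 2 rose and 1 fell. Ak4, a mitochondrial form, averaged 82.0 CPM in MyoD F/R/C, 4.33 CPM in MyoD and 6.82 CPM in MEF libraries (3.59 ± 0.87, edgeR adjusted p = 0.0122). MEF replicate 1 held 16.3 CPM against 1.41 and 2.72 CPM in the other MEF libraries, and without it the value was 5.25. Ak5, best known from brain, fell (-3.52 ± 0.70, edgeR adjusted p = 0.00538; -2.93 without MEF replicate 3). Ak7 was called at 14, 22 and 16 counts in MyoD F/R/C libraries against 1, 2 and 5 counts in MyoD and 0 in all MEF libraries.

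Among the AMP-activated protein kinase genes, listed together with Stk11, 3 of 8 rose and 1 fell. Stk11, which does not encode a subunit of this kinase, was not called. Prkag3, the gamma subunit of skeletal muscle, averaged 47.4 CPM in MyoD F/R/C, 4.45 CPM in MyoD and 0.397 CPM in MEF libraries (6.90 ± 0.78, edgeR adjusted p = 0.000582; 7.82 without MEF replicate 3). Prkaa2, a catalytic subunit, averaged 53.9, 7.82 and 4.70 CPM (3.52 ± 0.59, edgeR adjusted p = 0.00262), and Prkab2, a beta subunit, also rose. Prkag1, the widely expressed gamma subunit, fell by 0.49 on the log2 scale (edgeR adjusted p = 0.0446), a call that 10 of 17 alternatives ended. Prkaa1, the other catalytic subunit, averaged 48.0 CPM in MyoD F/R/C, 84.8 CPM in MyoD and 59.7 CPM in MEF libraries. It fell against MyoD (-0.82 ± 0.23, edgeR adjusted p = 0.0230), a call that ended without MyoD replicate 3 or MyoD F/R/C replicate 3, and did not pass against MEF (-0.32 ± 0.22, edgeR adjusted p = 0.296).

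Of the 6 carriers and channels tested, 3 rose and 0 fell: Vdac1 and Vdac2, channels of the mitochondrial outer membrane, and Slc25a5. Slc25a5, an ADP/ATP carrier of many tissues, rose by 0.58 ± 0.18 (edgeR adjusted p = 0.0316), a call that 8 of 17 alternatives ended, and 14 of 17 against MyoD. Slc25a4, the ADP/ATP carrier of heart and muscle, lay at 553, 562 and 862 CPM in MyoD F/R/C, 394, 375 and 483 CPM in MyoD and 381, 411 and 484 CPM in MEF libraries. Every MyoD F/R/C library was above the rest, but the difference did not pass (0.63 ± 0.24, edgeR adjusted p = 0.0681). In AMP and adenosine breakdown and salvage, 0 of 10 rose and 3 fell: Adk, Ada (adenosine deaminase) and Enpp1 (a cell-surface nucleotide hydrolase). Adk, adenosine kinase, averaged 22.5 CPM in MyoD F/R/C, 77.9 CPM in MyoD and 82.8 CPM in MEF libraries (-1.88 ± 0.22, edgeR adjusted p = 0.000621). The calls of Ada and Enpp1 ended without MEF replicate 1 (-1.68 against -3.08 with it for Ada, -3.71 against -4.65 for Enpp1, which was -5.25 without MEF replicate 3), and also without any 1 MyoD F/R/C replicate.

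**Figure D5:**
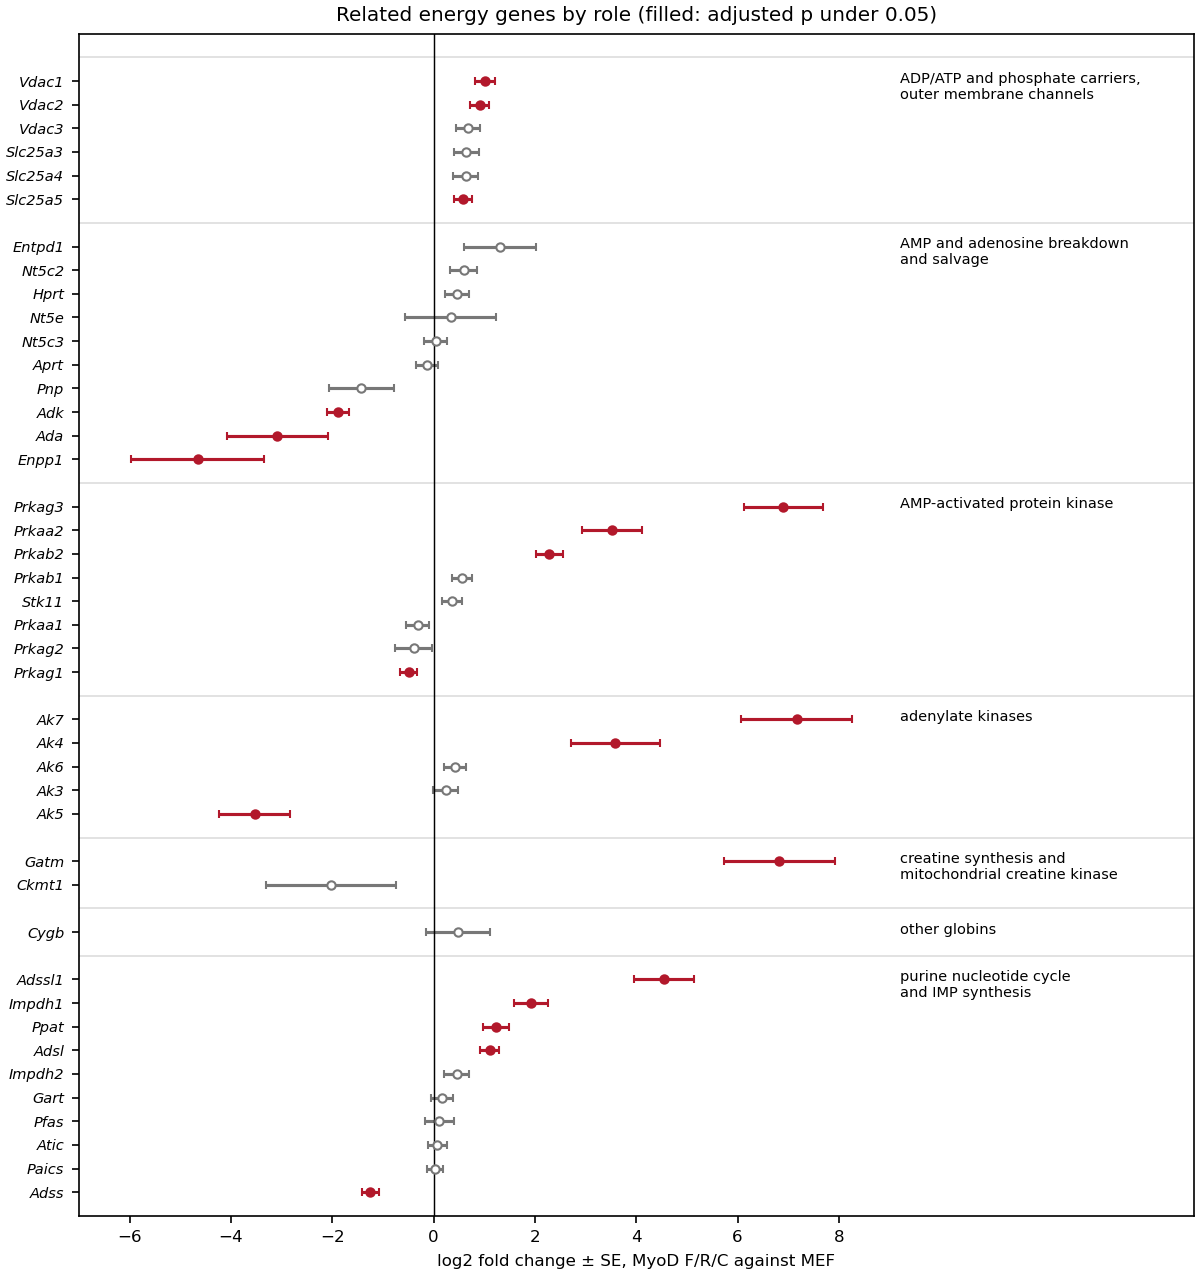
Log2 fold change ± SE of the 42 related energy genes tested in MyoD F/R/C against MEF libraries, grouped by role and filled where the edgeR adjusted p was under 0.05. 13 points are filled on the right of 0 and 6 on the left, and the value of Ak7, at 0 counts in every MEF library, depends on the prior count of the fit.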

How the data were processed

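RNA of 9 libraries was prepared with a stranded polyadenylated RNA kit, per the labels' protocols. Per the submitters' processing notes, the authors used bcl2fastq 2.19, Trimmomatic 0.36, kallisto 0.44 and edgeR 3.28 with GRCm38.p6; not given in the sources used here are the annotation release and the use of strand. The estimated counts (expected counts) were made per transcript by the authors with kallisto before they were deposited, per the file headers and the processing notes. The deposited TPM values, scaled by the authors for effective transcript length, served for transcripts and family shares. Each library lists 121843 transcripts.

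A GENCODE annotation of GRCm38 assigned 121104 transcripts to genes through their Ensembl identifiers. The remaining 739, with 0.200% to 0.494% of the counts of a library, were not used. Gene sums of estimated counts were rounded. The test was the two-sided quasi-likelihood F test of edgeR 4.0.16 (R 4.3.3) after filterByExpr (minimum count 10, minimum total 15) and TMM, in a single model of all 9 libraries. P-values were adjusted by Benjamini-Hochberg over the 15714 genes within a comparison, with a threshold of 0.05. Errors of log2 fold changes are SE, derived from the F statistic and approximate near 0 counts. Transcripts were tested alike. The fits were tested on simulated data. DESeq2 1.42.0, other scalings and filters, counts scaled from TPM, fits of 2 groups, a replicate block and leaving out each library were alternatives.

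The genes and lists were chosen with earlier results of these data known. All 10 genes are named, with related genes that were called in any comparison or fixed by role; 1 related gene is not reported here and was left out of the list counts. Deviations from group means of equal replicate numbers correlated at 0.632 to 0.729 between MyoD and MEF and at 0.101 to 0.151 between MyoD F/R/C and MEF, over the limit of 0.1 taken for pairing. Between MyoD F/R/C and MyoD they were 0.0837 to 0.164, so not all over it. Pairing is thus drawn from the data, not from the labels.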

Additional observations from a re-analysis of the deposited data

How the results depend on the processing

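Over 17 alternatives to each of the 30 fold changes of the 10 genes, 475 values kept their direction and their side of the threshold, 18 passed it only under the alternative, 6 no longer passed and 11 changed sign. These alternatives include leaving out each library of the group outside a comparison. That keeps all compared libraries in place but changes the estimate of spread that the groups share. In MyoD F/R/C against MyoD, Mb passed without MEF replicate 1 and Ampd3 without MEF replicate 3. The calls of Ckm, Ckmt2, Ampd1, Gamt, Ampd2 and Slc6a8 in both MyoD F/R/C comparisons, and of Mb against MEF, held under every alternative. The 6 values that lost a call were all of Ampd3 against MEF, 1 of them with counts scaled from TPM (edgeR adjusted p = 0.0578). In MyoD against MEF, the number of the 10 genes called was 4 with DESeq2, 1 without a filter and 1 with the replicate block, and 0 to 3 without 1 library. The number of all genes called there was 171 with DESeq2, 11 without a filter, 13 with the replicate block and 0 to 161 without 1 library. For the related genes it was 1 with DESeq2 and 0 to 2 without 1 library. The replicate block changed no other call of the 10 genes than those of Ampd3 and Mb given above; of transcripts against MyoD it called 10 in place of 11. The sign changed with total counts for Ckb in MyoD F/R/C against MEF (-0.014) and Gamt in MyoD against MEF (0.029). Without 1 library, MyoD F/R/C against MEF ranged from -0.029 to 0.14 for Ckb and -0.28 to 0.063 for Ak1. MyoD against MEF ranged from -0.11 to 0.35 for Ampd2, -0.83 to 1.63 for Ampd3 and -0.11 to 0.078 for Gamt. The cause was not tested. Total counts moved the median of all genes in MyoD F/R/C against MyoD by -0.19 and the share of calls that were higher to 42.4%, against 52.5% with TMM. For related genes called, alternatives chosen after seeing the data kept 587 values on their side of the threshold and ended 55 calls. Depth limits Ckm, Ckmt2, Ampd1 and Mb in MEF libraries, where counts were 0 to 33.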

Other observations

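The genes whose levels followed Ckm and Ckb most closely differed. Over the 9 libraries and 10235 genes compared by log2 CPM, those most like Ckm were Txlnb (Pearson r = 0.995), Myoz1, Srl, Mybpc2 and Sel1l3 (down to r = 0.992). Myoz1, a Z-disc protein of muscle, averaged 223 ± 37.5 CPM in MyoD F/R/C, 4.83 ± 2.69 CPM in MyoD and 0.675 ± 1.09 CPM in MEF libraries (SD, n = 3 each). Those most like Ckb were Micall1 (r = 0.969), Ascc2, Fam214b, Sh3kbp1 and Tmem63b (down to r = 0.845). Micall1, a regulator of endosome recycling, averaged 83.9 ± 9.76, 97.7 ± 18.3 and 80.5 ± 4.61 CPM in the same order of groups. These correlations are descriptions over libraries that share groups.

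Of the 7 related genes that did not pass the filter, Nt5c1a, the cytosolic nucleotidase of muscle, had 2, 1 and 3 counts in MyoD F/R/C libraries and 0 in all others.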
